A study of Mus musculus with 12 samples.

Results

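Transcripts of 10 endothelial genes were followed through 12 RNA libraries of mouse knee cartilage. The genes were Pecam1, Cdh5, Kdr, Emcn, Vwf, Tek, Tie1, Flt1, Egfl7 and Eng, taken by their symbols from a deposited table of 14712 genes, and all 10 symbols had 1 row each. The rule that picks them uses symbols alone, and the set itself was drawn up with earlier results of these data known. The tissues were compared over controls and mutants together, a comparison added after the data were seen. There, 6 genes (Cdh5, Kdr, Egfl7, Flt1, Emcn and Tie1) were called higher in growth plate than in articular cartilage and Vwf lower. Of all genes, 19.6% were called there in either direction. Within 1 genotype at a time Tie1 did not pass, and Vwf passed in controls only. Eng was at similar levels in both tissues. In mutants, with Sox9 targeted for deletion alone or with Sox8, 2 of the 10 were called higher than in controls in growth plate. These were Egfl7 and Vwf, where 10.7% of all genes were called in either direction. In articular cartilage 0 were called, where 0.353% of all genes were.

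Endothelial cells line blood vessels. Pecam1 and Cdh5 hold them together, Kdr and Flt1 receive vascular endothelial growth factors (VEGF), Tek and Tie1 form the angiopoietin receptor system, and Eng is a co-receptor for ligands of the transforming growth factor beta family. Emcn encodes a sialoglycoprotein of capillary and venous endothelium, Vwf the clotting protein that endothelial cells and megakaryocytes store, and Egfl7 a matrix protein secreted by endothelial cells. Healthy cartilage holds no vessels and secretes factors that keep them out, while at the lower border of the growth plate capillaries follow hypertrophic chondrocytes into new bone. Transcripts of these genes in captured cartilage therefore come from a tissue whose own cells are mostly not endothelial, and several of the genes are also used by blood cells, macrophages or mesenchymal cells.

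The mice were 3 months old. Their knees were frozen and sectioned, articular and growth plate cartilage were cut out by laser capture, and total RNA was sequenced with a stranded low-input kit. The libraries fall into 3 sets of 4, each set with a control and a mutant in both tissues: Sox9fl/fl alleles at day 7, Sox9fl/fl alleles at day 14, and Sox8fl/fl Sox9fl/fl alleles at day 14. Controls carried the floxed alleles and no Cre. Mutants also carried AcanCreERT2/+, an inducible Cre placed in the aggrecan gene Acan, so that recombination is directed to cells that express Acan and endothelial cells are not its target. The column headers name a tdTomato reporter allele for the Sox9 sets only, and the sources used here do not say what happened on day 0. There was 1 library for each genotype, day and tissue, so a group of 3 libraries mixes days and alleles, and its SD holds their differences too. The fits block by set, or by genotype and day. Of these differences, their error holds only the part that the libraries of a block do not share. The labels do not tie libraries to animals, so p-values measure the spread between these libraries, which may in part be technical.

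Values are the authors' normalised RPKM, reads per kilobase of transcript and scaled to library size, which allows levels of different genes to be set side by side. A single gene, AC087541.1, held 24.0% to 45.1% of the summed values of a library. In growth plate its share was 45.1% in the control and 42.0% in the mutant at day 7. It was 39.3% and 44.7% at day 14, and 33.8% and 24.0% in the Sox8 Sox9 set. The part of this share in the differences between libraries was not tested. The lowest value listed is 1, held by 1299 to 2823 genes in a library, and the depth of reads is unknown. Differences were taken as log2(value + 1), which understates the change of low genes. Of the cartilage markers, the proteoglycan gene Acan was at 1038 to 2599 in articular and 1694 to 2887 in growth plate controls, and the collagen gene Col2a1 at 313 to 451 and 13921 to 21242. The targeted gene Sox9 was lower in the mutant in 5 of 6 pairs, but in articular cartilage of the Sox8 Sox9 set it was 213 in the control and 282 in the mutant, which goes against the label of that library. Acan ran the way the label says, at 1038 in the control and 347 in the mutant of this pair. Sox8, the other targeted gene, was at 15.3 and 8.66, the latter the highest Sox8 level of any mutant library. Sox8 also fell in articular mutants of the Sox9 sets, where it was not targeted, from 23.2 to 5.16 at day 7 and from 17.8 to 1.63 at day 14. A lower Sox8 level therefore does not tell whether Sox8 was deleted. The 2 articular libraries of this set also stood apart in the endothelial genes, and results are given with and without them below.

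Cdh5 and Eng were the most abundant of the 10, at a mean of 16.6 and 14.1 over the 12 libraries, and Pecam1 followed at 8.30. Egfl7 and Kdr lay at 5.44 and 5.15, and Flt1, Tek, Vwf, Tie1 and Emcn between 3.60 and 2.47. The order is descriptive: within each of the groups of similar level (Cdh5 with Eng, Egfl7 with Kdr, and the last 5 genes) the ranges over libraries overlapped. Of the 120 values, 10 were at the floor of 1, and these belonged to Emcn, Tie1, Vwf, Kdr and Flt1. Summed over the 10 genes, the level was 27.7, 33.8 and 62.6 in the articular controls, with Sox9 alleles at day 7 first, at day 14 next and Sox8 Sox9 alleles last, an order kept for all values below. It was 51.7, 46.3 and 34.4 in the articular mutants, 59.5, 80.1 and 74.7 in the growth plate controls, and 92.4, 78.3 and 126 in the growth plate mutants. The articular control of the Sox8 Sox9 set was thus the highest of the 6 articular libraries and overlapped with the growth plate controls. In bulk tissue fewer endothelial cells and less RNA per endothelial cell cannot be told apart.

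**Figure D1:**
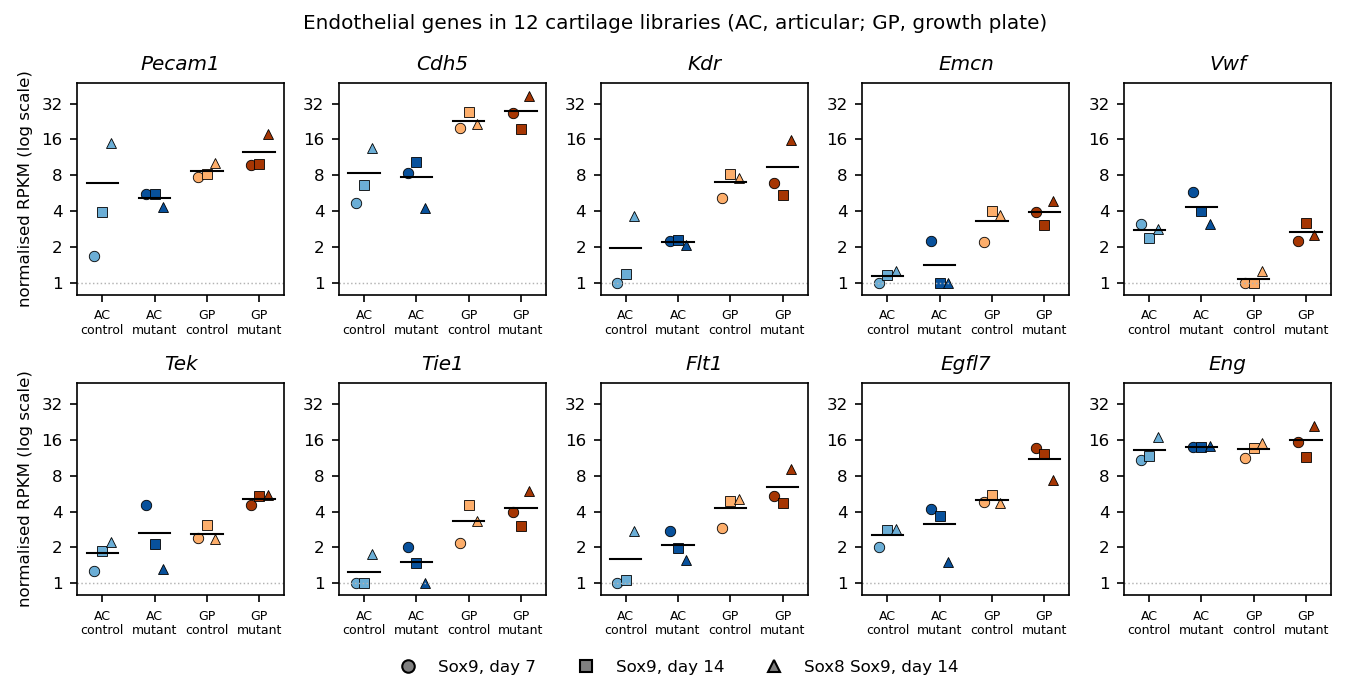
Level of each endothelial gene in the 12 libraries, as normalised RPKM on a log2 axis, by tissue and genotype; each point is 1 library, its shape gives the set, the horizontal line is the mean of 3 libraries and the dotted line is the floor of 1. Cdh5, Kdr, Flt1, Emcn, Tie1 and Egfl7 lie higher in growth plate than in articular cartilage, Vwf lies lower and Eng is level.

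The first comparison asks how the 2 tissues differ within the same genotype and day. The VEGF receptors were among the genes with the widest tissue difference. Kdr, the main signalling receptor for VEGF-A (chromosome 5, 75932827 to 75978458, mm10), was at 1, 1.20 and 3.67 in articular controls and at 5.15, 8.27 and 7.63 in growth plate controls. In mutants it was at 2.25, 2.32 and 2.09 in articular cartilage and at 6.85, 5.52 and 15.8 in growth plate. The tissues did not overlap in either genotype, and growth plate was higher by 1.53 ± 0.32 (log2, SE) in controls (limma, Benjamini-Hochberg adjusted p = 0.0158) and by 1.56 ± 0.32 in mutants (adjusted p = 0.0164). Flt1, a second VEGF receptor that also acts as a trap for the ligand (chromosome 5, 147561604 to 147726011), was at 1, 1.07 and 2.72 in articular and 2.92, 4.88 and 5.05 in growth plate controls. Its mutants had 2.76, 1.99 and 1.56 in articular cartilage against 5.39, 4.72 and 9.11 in growth plate, again without overlap. The difference was 1.06 ± 0.28 in controls (limma, Benjamini-Hochberg adjusted p = 0.0413) and 1.23 ± 0.28 in mutants (adjusted p = 0.0262).

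The junction genes differed from each other. Cdh5, which encodes VE-cadherin (chromosome 8, 104101625 to 104144511), was at 4.72, 6.61 and 13.6 in articular controls and 19.9, 26.9 and 21.4 in growth plate controls. In the mutants it was at 8.44, 10.4 and 4.22 against 26.7, 19.8 and 36.9. All growth plate libraries exceeded all articular ones, by 1.45 ± 0.38 in controls (limma, Benjamini-Hochberg adjusted p = 0.0437) and 1.76 ± 0.38 in mutants (adjusted p = 0.0235). Pecam1, which encodes the adhesion molecule CD31 that platelets and leukocytes share (chromosome 11, 106654217 to 106750628), was at 1.70, 3.94 and 14.9 in articular and 7.81, 8.26 and 10.2 in growth plate controls. The third articular control lay above every growth plate control, so the groups overlapped, and the difference of 0.70 did not pass (limma, Benjamini-Hochberg adjusted p = 0.315). Without the 2 articular Sox8 Sox9 libraries it was 1.31 and passed (adjusted p = 0.0416), while without the day 7 control library of either tissue it was 0.20. In mutants Pecam1 was at 5.58, 5.55 and 4.33 against 9.71, 9.97 and 17.6, without overlap, a difference of 1.08 that did not pass either (adjusted p = 0.143).

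Egfl7, Emcn and the Tie receptors were low genes with the same direction. Egfl7 (chromosome 2, 26580014 to 26593120) was at 2.03, 2.81 and 2.84 in articular controls and 4.81, 5.50 and 4.72 in growth plate controls, and at 4.22, 3.68 and 1.52 against 13.6, 12.2 and 7.36 in mutants. It was higher in growth plate by 0.76 ± 0.18 in controls (limma, Benjamini-Hochberg adjusted p = 0.0264) and by 1.57 ± 0.18 in mutants (adjusted p = 0.000987), and the mutant value was called in each of the 12 fits that left out 1 library. Emcn (chromosome 3, 137341067 to 137432185) was at 1, 1.18 and 1.28 in articular controls and 2.23, 4.03 and 3.72 in growth plate controls. In mutants it was at 2.25, 1 and 1 against 3.98, 3.06 and 4.87, and the differences were 0.98 ± 0.24 (limma, Benjamini-Hochberg adjusted p = 0.0316) and 1.06 ± 0.24 (adjusted p = 0.0264). Since 3 of its 6 articular values lie at the floor, the fold is not a measure of the true ratio. Tie1, an orphan receptor that pairs with Tek (chromosome 4, 118471191 to 118490061), was at 1, 1 and 1.76 in articular and 2.17, 4.53 and 3.31 in growth plate controls, and at 2.02, 1.49 and 1 against 3.98, 3.01 and 5.89 in mutants. Its differences of 0.92 and 1.06 did not pass within controls (limma, Benjamini-Hochberg adjusted p = 0.0735) or within mutants (adjusted p = 0.0519). Tek, the receptor TIE2 for angiopoietins (chromosome 4, 94739289 to 94874976), was at 1.27, 1.87 and 2.24 in articular and 2.38, 3.06 and 2.37 in growth plate controls, and at 4.51, 2.13 and 1.32 against 4.57, 5.35 and 5.48 in mutants. Growth plate was higher in each pair, but by as little as 0.02 in the mutants at day 7, and neither difference passed (0.38 with an adjusted p of 0.466 and 0.84 with 0.116, limma with Benjamini-Hochberg adjustment).

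Vwf went the other way and Eng did not differ beyond its spread. Vwf (chromosome 6, 125546774 to 125686679) was at 3.11, 2.38 and 2.85 in articular controls and at 1, 1 and 1.25 in growth plate controls, and it fell by 0.86 ± 0.23 from articular cartilage to growth plate (limma, Benjamini-Hochberg adjusted p = 0.0461). In mutants it was at 5.81, 4.003 and 3.12 in articular cartilage and 2.27, 3.21 and 2.52 in growth plate. The mutant groups overlapped slightly and the difference of −0.51 did not pass (limma, Benjamini-Hochberg adjusted p = 0.236). Eng, which encodes endoglin (chromosome 2, 32646595 to 32682669), was at 10.8, 11.8 and 16.7 in articular and 11.2, 13.6 and 15.1 in growth plate controls, and at 13.9, 13.8 and 14.2 against 15.4, 11.5 and 20.8 in mutants. Its tissue differences were 0.03 in controls and 0.14 in mutants (limma, Benjamini-Hochberg adjusted p = 0.975 and 0.717), and both turned to −0.05 when single libraries were left out.

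In controls, 5 of the 10 genes were called higher in growth plate, 1 lower and 4 not, where 12.9% of all genes tested were called in either direction. In mutants 5 were called higher and 5 not, where 10.2% of all genes were called. The median log2 difference of the 10 genes was 0.84 in controls and 1.07 in mutants, beside −0.10 and −0.05 over all genes. Taking the mean of the control and mutant differences, a comparison added after the data were seen, 6 genes were called higher (Cdh5 1.61, Kdr 1.55, Egfl7 1.17, Flt1 1.14, Emcn 1.02 and Tie1 0.99, limma, Benjamini-Hochberg adjusted p from 0.000321 to 0.00928), Vwf was called lower (−0.68, Benjamini-Hochberg adjusted p = 0.0200) and 3 did not pass, where 19.6% of all genes were called. Of the 10 genes, 7 were higher in growth plate in all 6 pairs, beside 6.99% of all genes. Vwf was lower in all 6 pairs, beside 14.4% of all genes, Pecam1 was higher in 5 of 6 and Eng in 4 of 6.

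The within-genotype calls rested on single libraries more than this mean did. In controls the count of 6 calls went to 0 without the Sox9 control library of either tissue at day 7 or at day 14, to 2 without either Sox8 Sox9 control library, to 3 without the growth plate mutant at day 7 or day 14, and to 7 without either Sox8 Sox9 mutant library. In mutants the count of 5 went to 3 without any 1 of the 4 Sox9 mutant libraries and to 1, Egfl7, without either Sox8 Sox9 mutant library. The 6 genes called higher in the mean over both genotypes were called in every one of the 12 such fits, whereas Vwf was called in 5 of them. Without the 2 articular Sox8 Sox9 libraries, the counts were 4 in controls, 2 in mutants and 7 in the mean.

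**Figure D2:**
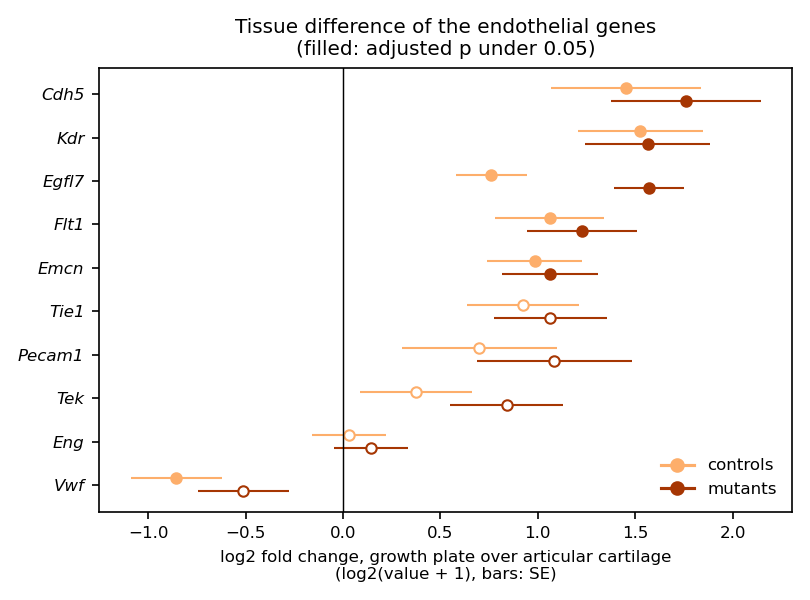
Log2 fold change of growth plate over articular cartilage for each endothelial gene in controls and in mutants, on the log2(value + 1) scale; points are limma estimates over 3 pairs, bars are standard errors and filled points passed an adjusted p of 0.05. Kdr and Cdh5 lie near 1.5 or above in both genotypes, Eng lies at 0.03 and 0.14, and Vwf lies below 0 in both.

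Other cells moved with the tissue difference. Of all genes, 4.26% were called higher and 8.63% lower in growth plate in controls, and 4.3% and 5.91% in mutants. Osteoclast genes, markers of the cells that resorb cartilage and bone at the vascular front, were called higher in growth plate for 7 of 8 in controls and for 7 of 8 in mutants, and their summed level was 44.9 to 276.5 in articular controls and 1085 to 1444 in growth plate controls. Osteoblast and osteocyte genes were called higher for 5 of 11 and lower for 1 in controls, with sums of 3045 to 5102 and 7032 to 13328. Fibroblast genes went the other way, 0 higher and 3 lower of 7 in controls, with sums of 1610 to 1833 in articular and 154 to 330.4 in growth plate controls. In controls neutrophil genes were called lower for 5 of 10 and had sums of 112 to 1151 against 38.5 to 60.1, and macrophage genes were called higher for 2 of 9 and lower for 3. In mutants 1 of the 10 neutrophil genes was called lower, with sums of 250 to 1082 in articular cartilage and 383 to 1449.9 in growth plate. Macrophage genes were called higher there for 2 of 9 and lower for 1. Their part in the endothelial differences was not tested.

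Vwf moved with the platelet gene Pf4, which was chosen for this after values were seen. Pf4 was at 5.83, 23.1 and 23.6 in articular controls and 1, 3.36 and 1.90 in growth plate controls. In mutants it was at 39.98, 58.1 and 23.9 in articular cartilage and at 11.96, 33.6 and 19.0 in growth plate. Across the 12 libraries Vwf and Pf4 had a Pearson correlation of 0.87, a description over points that share tissue and genotype. The other defining megakaryocyte markers were near the floor: Itga2b, an integrin of platelets, reached at most 3.99 and was at 1 in all 3 growth plate controls, and Gp9, a platelet glycoprotein, was above 1 in 2 libraries only, at 2.49 and 2.30. Over the whole megakaryocyte and platelet list, 1 of 9 was called higher and 1 lower in growth plate controls, where 12.9% of all genes were called. The lower gene was Pf4. The higher was Itgb3, an integrin gene, at 5.26, 13.2 and 10.6 in articular and 25.4, 36.3 and 32.6 in growth plate controls. The sum of the list was 20.5 to 59.9 in articular and 35.4 to 46.9 in growth plate controls, and Itgb3 made up most of the latter.

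The second comparison asks what changed in mutants within growth plate. Egfl7 rose from 5.01 ± 0.43 to 11.1 ± 3.28 (mean ± SD, n = 3 libraries each), and every mutant lay above every control. Its log2 fold change was 0.97 ± 0.25 (limma, Benjamini-Hochberg adjusted p = 0.0371), and the pair values were 1.33, 1.03 and 0.55. Vwf rose from 1.08 ± 0.15 to 2.67 ± 0.49, also without overlap, by 0.81 ± 0.23 (limma, Benjamini-Hochberg adjusted p = 0.0478). Its controls sit on the floor, so the fold is not a measure of the true ratio. These were 2 calls of 10, both higher, where 10.7% of all genes were called in either direction. The median of the 10 was 0.36, beside 0.20 over all genes.

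The other 8 genes did not pass in growth plate. Tek was higher in each of the 3 pairs, at 2.38, 3.06 and 2.37 in controls and 4.57, 5.35 and 5.48 in mutants without overlap, and had 0.77 (limma, Benjamini-Hochberg adjusted p = 0.130). Pecam1 was also higher in each pair, with 0.42. Flt1 had 0.47, Tie1 0.29, Kdr 0.27, Cdh5 0.25, Eng 0.22 and Emcn 0.21, and their pairs differed in sign. The Sox9 day 14 pair stood apart: 4 of the 10 genes were higher and 6 lower in its mutant, while 10 of 10 were higher in the mutant of the day 7 pair and of the Sox8 Sox9 pair. Median differences over the 10 genes were 0.64 at day 7, −0.14 at day 14 and 0.71 in the Sox8 Sox9 pair. All genes moved in part with these pairs: 66.0% of them were higher in the mutant at day 7, 48.3% at day 14 and 63.3% in the Sox8 Sox9 pair, with medians of 0.30, 0.00 and 0.20. In the last pair Kdr went from 7.63 to 15.8, Flt1 from 5.05 to 9.11 and Cdh5 from 21.4 to 36.9. With the Sox9 sets alone, Kdr and Cdh5 had −0.08 and −0.01.

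The 2 growth plate calls were sensitive to the fit. Egfl7 was called under 4 of 11 other settings (limma, Benjamini-Hochberg adjusted p from 0.0199 to 0.170) and in 4 of 12 fits without 1 library (0.0286 to 0.147). It was lost after median ratio scaling and quantile normalisation, with 0.78 and 0.74, and with a block for each matched pair. Fits that kept it were those without the articular control or mutant of day 7 and those without either articular Sox8 Sox9 library; the other 8, each with 1 other library left out, lost it. Vwf was called in 2 of 12, those without the articular mutant of day 7 or of the Sox8 Sox9 set. Tek joined the calls in the former. The direction of both called genes was the same in all of these fits.

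In articular cartilage 0 of the 10 genes were called with limma and Benjamini-Hochberg adjustment, where 0.353% of all genes were called, and 0 had an unadjusted p under 0.05. The lowest adjusted p was 0.453, for Vwf, with 0.46 ± 0.23 and a higher mutant in each of the 3 pairs. The median of the 10 was 0.15, beside 0.13 over all genes. That median joins pairs of opposite sign. All 10 genes were higher in the mutant at day 7 and 9 of 10 at day 14, with medians of 0.73 and 0.36, where 64.2% and 54.4% of all genes were higher, with medians of 0.16 and 0.06. In the Sox8 Sox9 pair 9 of 10 were lower in the library labelled mutant, all but Vwf, with a median of −0.51, where 35.0% of all genes were lower and the median was 0.07.

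The articular Sox8 Sox9 pair showed this most in the junction genes. Pecam1 went from 14.9 to 4.33 and Cdh5 from 13.6 to 4.22, while at day 7 Pecam1 went from 1.70 to 5.58 and Cdh5 from 4.72 to 8.44. Kdr went from 3.67 to 2.09 in that pair and from 1 to 2.25 at day 7. Without the 2 articular Sox8 Sox9 libraries the median of the 10 genes was 0.65, the change of Cdh5 went from −0.06 to 0.65, and again 0 of the 10 were called. Macrophage and osteoclast markers were also high in this articular control, at sums of 392.6 and 276.5, against 76.6 and 172 and against 44.9 and 106 in the other articular controls. Lymphatic endothelial genes had a sum of 42.5 there and 8.25 and 8.38 in the other articular controls. The articular mutants had lymphatic sums of 40.2, 52.3 and 25.6, macrophage sums of 336, 372 and 332, and osteoclast sums of 89.0, 97.3 and 156. The part of these cells in the endothelial values was not tested.

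Whether the mutant effect differed between the tissues was tested as an interaction. None of the 10 genes was called (limma, Benjamini-Hochberg adjustment), where 0.184% of all genes were, and 1 of the 10, Egfl7, had an unadjusted p under 0.05. Egfl7 had a difference of 0.81 ± 0.26 between the growth plate and the articular effect (adjusted p = 0.290), positive in each of the 3 sets. Its growth plate call and the lack of one in articular cartilage therefore do not show a tissue difference in the effect. The median over the 10 was 0.24, but it was 1.22 in the Sox8 Sox9 set and −0.14 and −0.31 in the Sox9 sets at day 7 and day 14, beside 0.08, 0.12 and −0.03 over all genes. Without the 2 articular Sox8 Sox9 libraries it was −0.26.

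**Figure D3:**
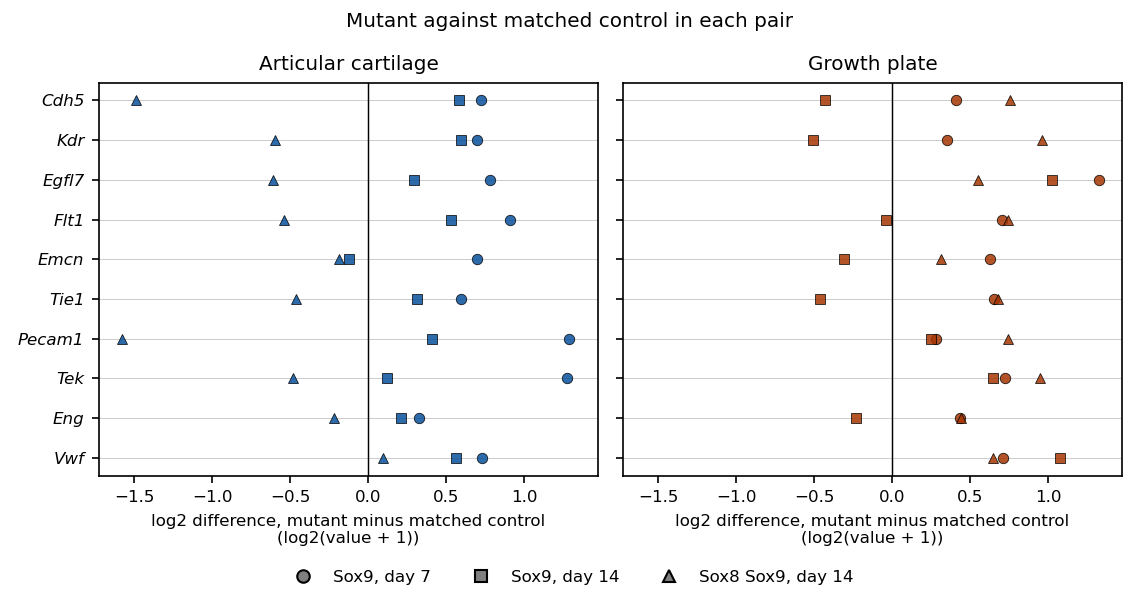
Difference between mutant and matched control for each endothelial gene in each of the 3 pairs, in articular cartilage on the left and growth plate on the right, on the log2(value + 1) scale; shapes give the set. In articular cartilage 9 of 10 genes lie below 0 in the Sox8 Sox9 pair and 10 of 10 above 0 at day 7, and in growth plate the 3 values of Egfl7 and of Vwf all lie above 0.

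Days and allele sets have 1 library per cell and are described without a test. From day 7 to day 14 in the Sox9 sets, 9 of the 10 genes were higher in growth plate controls and 8 in articular controls, while 7 and 8 were lower in growth plate and articular mutants. Of all genes, 51.5% and 47.4% were higher in these controls, and 66.2% and 53.3% were lower in these mutants. Between the Sox8 Sox9 and the Sox9 set at day 14, all 10 were higher in articular controls and 8 were higher in growth plate mutants. In articular mutants 8 were lower, and in growth plate controls 4 were higher and 6 lower. Of all genes, 46.9% were higher in articular controls, 61.4% were higher in growth plate mutants and 44.4% were lower in articular mutants.

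The 8 genes other than Vwf and Eng varied together. Among their 28 pairs, the Pearson correlation of log2 levels over 12 libraries lay between 0.60, for Pecam1 with Egfl7, and 0.98, for Tie1 with Flt1. Vwf had a negative correlation with 7 of the other 9, the lowest −0.52, with Cdh5. Against the mean of the other 9 genes Flt1 had 0.97, Tie1 0.94 and Kdr 0.90, Eng had 0.58 and Vwf −0.31. These are descriptions, and the libraries share tissues, genotypes and sets. Of 7669 other genes with a mean of at least 5, those most like the mean of the 10 included Csf1r, the colony stimulating factor receptor of macrophages and osteoclasts (Pearson 0.97, Spearman 0.97), Map4k3, a kinase (0.96 and 0.98), Maf, a transcription factor (0.96 and 0.96), and Cd93, a receptor of endothelial and myeloid cells (0.95 and 0.94). Cthrc1, Dnm3os and Rai14 had 0.94 each. Csf1r was at a mean of 13.3 in articular controls, 19.2 in articular mutants, 31.2 in growth plate controls and 88.7 in growth plate mutants.

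Because most of these genes moved together between tissues, the 250 bases before their start sites are shown for 4 of them, from RefSeq on GRCm38.p6, written 5′ to 3′ on the strand of the gene. Capitals mark AGGAAG or its reverse complement CTTCCT, a core bound by ETS factors, a family with a part in endothelial genes, and AACAAT or ATTGTT, a core bound by SOX factors. Egfl7 has the most ETS cores, Emcn has both kinds, Flt1 has 2 ETS cores, and Kdr, with one of the widest tissue differences, has neither.
Egfl7, first start site, chr2:26580833-26581082, plus strand: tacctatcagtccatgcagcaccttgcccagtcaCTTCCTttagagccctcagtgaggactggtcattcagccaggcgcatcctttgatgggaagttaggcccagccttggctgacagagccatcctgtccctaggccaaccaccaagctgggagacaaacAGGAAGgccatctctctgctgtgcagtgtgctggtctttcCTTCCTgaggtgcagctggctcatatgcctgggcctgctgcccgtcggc
Emcn, chr3:137340828-137341077, plus strand: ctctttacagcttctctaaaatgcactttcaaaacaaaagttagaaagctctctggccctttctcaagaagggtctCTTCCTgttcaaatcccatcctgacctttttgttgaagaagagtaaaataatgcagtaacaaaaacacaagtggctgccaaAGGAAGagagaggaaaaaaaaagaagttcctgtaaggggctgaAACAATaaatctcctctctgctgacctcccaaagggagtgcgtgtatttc
Flt1, chr5:147726012-147726261, minus strand: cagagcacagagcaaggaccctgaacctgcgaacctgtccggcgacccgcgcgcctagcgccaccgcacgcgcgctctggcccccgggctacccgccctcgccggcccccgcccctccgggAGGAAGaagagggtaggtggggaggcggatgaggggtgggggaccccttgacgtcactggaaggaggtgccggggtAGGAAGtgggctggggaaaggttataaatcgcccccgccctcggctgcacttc
Kdr, chr5:75978456-75978705, minus strand: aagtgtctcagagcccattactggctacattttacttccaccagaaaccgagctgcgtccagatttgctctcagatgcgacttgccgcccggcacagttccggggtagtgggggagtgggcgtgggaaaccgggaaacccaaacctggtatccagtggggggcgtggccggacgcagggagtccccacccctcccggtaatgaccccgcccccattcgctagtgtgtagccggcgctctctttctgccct

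Promoters were matched for 7 of the 10 genes, with 9 start sites; Pecam1, Cdh5 and Vwf had no entry in the table. The ETS core stood in at least 1 window of 5 of the 7 (Egfl7, Emcn, Flt1, Tie1 and Eng), beside 32.3% of all genes of the table, searching both strands. The SOX core stood in 2 of the 7, Emcn and Tek, beside 10.9% of all genes. In Emcn, the 1 gene that holds both cores, their matches do not overlap. A match is a description of the sequence, and no match says only that these letters are not in the window.

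Egfl7 also hosts a microRNA. The endothelial miR-126, whose mature 3p strand is shown because it shares the transcription unit of the 1 member with a called rise in mutants and in both tissue comparisons, lies on GRCm38.p6 at chr2:26591402-26591423, plus strand, within an intron of 8 of the 9 Egfl7 transcripts that span it. Capitals mark its seed, bases 2 to 8.
mmu-miR-126a-3p: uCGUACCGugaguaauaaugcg
The table's Mir126 row was at 1 in 9 of 12 libraries and reached 3.54 at most, in the articular mutant of the Sox8 Sox9 set. A total RNA kit does not measure mature microRNAs, so its level cannot be read from this row.

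Other genes of the VEGF pathway are its ligands and co-receptors. Of 11 genes, 4 were called higher and 0 lower in growth plate than in articular controls, and 4 higher and 2 lower in mutants, where 12.9% and 10.2% of all genes were called in either direction. Plxnd1, a semaphorin receptor that guides vessels, was at 6.64 in articular and 22.4 in growth plate controls (log2 difference 1.72 ± 0.24), and Nrp1, a co-receptor for VEGF-A and semaphorins, at 9.25 and 29.9 (1.65 ± 0.31). Vegfa itself, the main vessel growth factor, was at 56.3, 40.4 and 34.1 in articular and 52.6, 58.2 and 67.9 in growth plate controls, and at 52.1, 36.7 and 30.5 in growth plate mutants. In growth plate mutants 1 of the 11 rose, Nrp2, a co-receptor with a part in lymphatic growth, from 40.3 ± 14.9 to 136 ± 44.2 (1.76 ± 0.36, limma, Benjamini-Hochberg adjusted p = 0.0137). That count is near the 10.7% of all genes called, and the median of the 11 was 0.09, beside 0.20 over all genes. In articular cartilage 0 of the 11 were called.

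Angiopoietin, Notch and TGF-beta lists each held called genes in growth plate mutants, where 10.7% of all genes were called. Of 6 measured genes of the angiopoietin list 3 rose, among them Angpt4 from 1.78 to 7.21 (1.54 ± 0.29) and Angpt2, a context-dependent antagonist of Tek, from 1.80 to 4.67 (1.02 ± 0.26), both with all mutants above all controls. Of 8 measured Notch genes Hey1, a Notch target, and Jag1, a Notch ligand, rose (1.45 ± 0.41 and 1.15 ± 0.21), while 6 did not pass. Jag1 was called in 12 of 12 fits without 1 library, but Hey1 in 2 of 12 and under 5 of 11 other settings. Dll4, the ligand of vessel tips, was at 3.22, 2.33 and 1.85 in growth plate controls and 3.48, 3.26 and 2.03 in mutants. Of 13 genes of TGF-beta and BMP9 signalling 5 rose and 0 fell, with Smad6, an inhibitory Smad, at 1.90 ± 0.23 and Id3, a BMP target, at 1.63 ± 0.22. In articular cartilage 0 genes of these 3 lists were called.

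Of 36 further endothelial surface and junction genes, 6 rose, 0 fell and 30 did not pass in growth plate mutants, where 10.7% of all genes were called. Their median was 0.49, beside 0.20 over all genes. Vcam1, an adhesion molecule of activated endothelium, went from 2.89 to 16.5 (2.08 ± 0.58, limma, Benjamini-Hochberg adjusted p = 0.0499), and Cav1, the caveolae protein caveolin 1, from 3.84 to 11.8 (1.40 ± 0.24, adjusted p = 0.00687). Cav1 was called in 12 of 12 fits without 1 library, but Vcam1 in 3 of 12 and under 2 of 11 other settings. In controls 4 of the 36 were called higher in growth plate and 3 lower, where 4.26% of all genes were called higher and 8.63% lower. Cav1 and Icam1, an adhesion molecule for leukocytes, were among the latter, at 27.3 against 3.84 and 13.8 against 1.66. Of 8 measured artery and vein genes Ly6c1 and Cxcl12 rose in growth plate mutants (2.08 ± 0.41 and 1.39 ± 0.30), and both Ly6c1 and Ly6a were lower in growth plate than in articular cartilage in controls, Ly6a in 3 of 12 fits without 1 library.

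Transcription factors of endothelium did not follow the receptors. Of 14 measured, 0 were called higher and 5 lower in growth plate controls, where 4.26% of all genes were called higher and 8.63% lower. In mutants 1 was higher and 4 lower, where 4.3% of all genes were called higher and 5.91% lower. Erg, an ETS factor of endothelium that articular chondrocytes also use, was at 18.4 to 29.6 in articular and 1.72 to 3.24 in growth plate controls, a log2 difference of −2.96 ± 0.30 (limma, Benjamini-Hochberg adjusted p = 0.000420). Ets2, a broadly used ETS factor, was at 47.2 and 8.80 (−2.26 ± 0.20). In growth plate mutants 1 of the 14 rose, Lmo2, a cofactor of blood and endothelial cells, from 2.50 to 10.3 (1.67 ± 0.38, limma, Benjamini-Hochberg adjusted p = 0.0233), a share under the 10.7% of all genes called.

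Vessel walls and basement membrane held genes that chondrocytes also make. Of 12 measured pericyte and smooth muscle genes 5 rose and 1 fell in growth plate mutants, where 7.92% of all genes were called higher and 2.82% lower. Rgs5, a pericyte marker, was at 2.39, 8.85 and 8.99 in controls and 10.2, 36.2 and 40.1 in mutants (1.89 ± 0.50, limma, Benjamini-Hochberg adjusted p = 0.0421), a call kept under 3 of 11 other settings and in 4 of 12 fits without 1 library. Cspg4, the NG2 proteoglycan of pericytes and chondrocytes, went from 129 to 48.9 (−1.45 ± 0.20). Of 10 basement membrane genes 2 fell, where 2.82% of all genes were called lower. They were Nid2, nidogen 2, from 152 to 17.9 and Hspg2, perlecan, from 423 to 99.6. Both are abundant in cartilage matrix, and the collagen IV genes Col4a1 and Col4a2, which vessels share, did not pass. Col4a1 was at 46.7, 51.4 and 42.8 in growth plate controls and 40.1, 48.4 and 65.0 in mutants.

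Cartilage factors that inhibit vessels were lower in mutants for a part of the list. Of 12 measured, 4 fell and 0 rose in growth plate, where 2.82% of all genes were called lower and 7.92% higher. Lect1, which encodes chondromodulin 1, an inhibitor of vessel growth made by chondrocytes, was at 1797, 1392 and 1549.5 in growth plate controls and at 371, 375 and 12.3 in mutants. The log2 difference was −3.68 ± 0.98 (limma, Benjamini-Hochberg adjusted p = 0.0461), and it was called under 6 of 11 other settings and in 4 of 12 fits without 1 library. Sfrp5, a Wnt antagonist, changed by −2.13 ± 0.40 in growth plate and by −3.38 ± 0.40 in articular cartilage (limma, Benjamini-Hochberg adjusted p = 0.0106 and 0.0149). In articular cartilage it was the 1 of the 12 called, where 0.353% of all genes were called. In articular controls Lect1 was at 35.1, 22.1 and 38.3, far under its level in growth plate controls (5.62 ± 0.89, limma, Benjamini-Hochberg adjusted p = 0.00709).

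Markers of other cells moved with the growth plate result. Of all genes, 7.92% were called higher and 2.82% lower in growth plate mutants. Neutrophil genes rose for 8 of 10, with sums of 38.5 to 60.1 in controls and 383 to 1449.9 in mutants, and macrophage genes for 4 of 9, with sums of 64.3 to 142 and 198 to 638. Megakaryocyte and platelet genes rose for 2 of 9, Pf4 and Itgb3, with sums of 35.4 to 46.9 and 102 to 143. Itgb3 made up a large part of these sums, at 25.4, 36.3 and 32.6 in controls and 84.1, 49.5 and 110 in mutants. The defining marker Itga2b was at 1 in the 3 controls and at 1.07, 2.94 and 1.56 in mutants. Fibroblast genes rose for 4 of 7, osteoblast and osteocyte genes for 4 of 11 with 1 lower, and chondrocyte genes fell for 9 of 11, with sums of 25056 to 34967 and 1282 to 5517. Erythroid genes rose for 1 of 8, Alas2 (called in 4 of 12 fits without 1 library), and had sums of 60.8 to 228 and 251 to 706. Their part in the values of Egfl7, Vwf and the other endothelial genes was not tested. Lymphatic markers were called for 0 of 4 in growth plate mutants. Between the tissues in controls, 1 of the 4 was called higher in growth plate and 1 lower, where 12.9% of all genes were called. The lower was Lyve1, a receptor of lymphatic endothelium and some macrophages, at 1 in the 3 growth plate controls and at 3.77 to 18.8 in articular controls. The higher was Flt4, at 2.96, 5.83 and 3.74 in growth plate and 1, 1.94 and 1.31 in articular controls (1.08, limma, Benjamini-Hochberg adjusted p = 0.0223). Flt4 was called in 6 of 12 fits without 1 library and Lyve1 in 7 of 12.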

How the data were processed

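Values were the authors' NRPKM, RPKM normalised further by the authors per the file headers; that step, the aligner, the counting tool, its use of strand and the annotation were not recorded in the labels or headers used here. The submitters' processing notes name the build mm10. No value lies under 1, so lower ones appear to have been raised to 1. Values did not step in whole reads, so depth is unknown. Overlapping and antisense genes cannot be told apart. Identifiers of 14293 of 14712 genes matched GENCODE M21, which gave coordinates.

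The endothelial genes and the lists of other vessel genes and cell markers were chosen with earlier results of these data known. Log2(value + 1) was fitted over all 12 libraries and genes in R 4.3.3 with limma 3.58.1 and statmod 1.5.0, using robust moderation and a trend on mean level. Mutant effects used 4 cells of tissue by Cre with the set as a block; tissue differences and the interaction took genotype and day together as the block. A call is a Benjamini-Hochberg adjusted p under 0.05 over all genes. The fits were tested on simulated data with large changes in genes of higher level and low spread. This does not test them on levels as low or changes as small as those of most endothelial genes. Labels number no replicates; mutants were matched to the control of the same alleles, day and tissue. The comparison of tissues over both genotypes and the fits without the 2 articular Sox8 Sox9 libraries were added after the data were seen. Of each list, the up to 2 called genes with the largest change per comparison are named, beside the first 2 genes of a list and, chosen after values were seen, Pf4 and its correlation with Vwf. Alternatives were other added values, a mean of at least 5, quantile and median ratio scaling, other blocks, plain empirical Bayes, subsets of sets or libraries, and leaving out each library. Of the 8 genes most like the endothelial genes in pattern, 1 is not reported here.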

Additional observations from a re-analysis of the deposited data

How the results depend on the processing

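The number of endothelial genes called was 0 in articular cartilage and 0 for the interaction under every setting run. In growth plate mutants it was 2, against 1 with an added value of 0.1 or 5, a mean of at least 5 or without the 2 articular Sox8 Sox9 libraries. It was 0 after quantile or median ratio scaling, with no set block, with a block for each matched pair, with the compared libraries alone and with the Sox9 sets alone, and 0 to 3 without 1 library. In controls the tissue count was 6, against 3 with a mean of at least 5 (5 genes left) or the Sox9 sets alone, 0 with the compared libraries alone, and 0 to 7 without 1 library. In mutants it was 5, against 3 with a mean of at least 5, 2 with the Sox9 sets alone, 1 with the compared libraries alone, 2 without the 2 articular Sox8 Sox9 libraries and 1 to 5 without 1 library. Over both genotypes it was 7, against 3 with a mean of at least 5, 8 with median ratio scaling, 9 with quantile normalisation and 6 to 7 without 1 library.

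Over all genes, articular cartilage had 52 calls, against 29 with no set block, 12 paired, with a replicate block for each matched pair, 2 with the compared libraries alone, 24 with the Sox9 sets alone, 23 with plain empirical Bayes and 6 to 101 without 1 library. Growth plate had 1580, against 945 with no set block, 0 with the compared libraries alone, 274 with the Sox9 sets alone and 658 to 1927 without 1 library. The tissue counts were 1896 in controls, 1501 in mutants and 2889 over both, against 1058, 759 and 1849 with the Sox9 sets alone, and 1081, 772 and 1889 without the 2 articular Sox8 Sox9 libraries. The compared libraries alone gave 866 in controls and 781 in mutants, and leaving out 1 library gave 894 to 2068, 796 to 1362 and 1990 to 2771. The interaction had 27, against 15 with an added value of 0.1, 1 with plain empirical Bayes, 0 with the Sox9 sets alone, 0 without the 2 articular Sox8 Sox9 libraries and 0 to 4 without 1 library.

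Some small values turned in sign. In articular cartilage Cdh5 had −0.06, against 0.65 with the Sox9 sets alone and without the 2 articular Sox8 Sox9 libraries and −0.36 to 0.46 without 1 library, and the median of the 10 genes had −0.068 to 0.48 without 1 library. In growth plate mutants quantile normalisation gave Emcn −0.073 and Tie1 −0.00018, the Sox9 sets alone gave Cdh5 −0.011 and Kdr −0.078, and leaving out 1 library gave Emcn −0.052 to 0.41 and Kdr −0.0021 to 0.53. Eng had −0.052 to 0.12 in controls, −0.048 to 0.33 in mutants and −0.0084 to 0.18 over both without 1 library, and −0.048 in mutants with the Sox9 sets alone and without the 2 articular Sox8 Sox9 libraries. The interaction's median was −0.26 in both of these and −0.12 to 0.40 without 1 library. The cause of these moves was not tested. Labels number no replicates, so pairing rests on alleles, day and tissue, as in the paired fits above. Depth is unknown, and values near 1 cannot be resolved.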
